A study of Danio rerio with 11 samples.

Results

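The genes described here build the contractile machine of zebrafish skeletal muscle and couple nerve input to its contraction. They were taken from a list of 38 zebrafish genes for filament proteins, calcium handling, energy buffering and muscle chaperones. The list was chosen with earlier results of these data known, so counts of members set against all genes are descriptive only. Each gene was looked up by its symbol in the deposited table of raw counts. All 38 were found, as 46 of the 23617 gene identifiers in the table. Of these identifiers, 32 were matched without ambiguity. The other 14 stand under 6 symbols shared by 2 or more zebrafish copies (TNNI2, CACNA1S, CASQ1, SMYD1, KLHL41 and MYL1), where the table does not say which copy is the listed one, so all copies were kept. Symbols in capitals are those of the human counterpart in the gene name table, and a copy is told from its sister by its Ensembl identifier.

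RNA came from tails, the part of the embryo behind the yolk sac, at 24 hours post fertilisation, with 5 tails pooled per library. The embryos were lsd1 mutants or wildtype siblings of 2 lines, and the labels name the lines by number without giving the lesion. Line 23095 had 3 mutant libraries (replicates 1, 2 and 4) and 2 wildtype libraries (replicates 1 and 2). Line 36433 had 3 mutant and 3 wildtype libraries. Lsd1, encoded by kdm1a, is a histone demethylase and a corepressor of transcription. The labels do not say whether pools came from separate clutches, so p-values measure the spread between these pools. In bulk tissue, fewer muscle cells and less RNA per muscle cell cannot be told apart.

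In each sarcomere, myosin heavy and light chains form the thick filament, while actin, tropomyosin, the troponins and nebulin form the thin one, and titin spans from the Z-disc to the thick filament. A nerve impulse opens acetylcholine receptors, the dihydropyridine receptor in the membrane senses the voltage, and ryanodine receptors then release calcium that calsequestrin and triadin hold at the release site. SERCA pumps the calcium back. In the zebrafish tail, slow fibres arise first from cells beside the notochord and move to the surface of the myotome, and fast fibres fuse and fill its depth. The 2 fibre types use different myosins, troponins and myosin-binding proteins. Here 21 identifiers were counted as fast, 3 as slow (smyhc1, TNNC1 and MYBPC1), and 22 as shared or not assignable.

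Total counts lay between 8204459 and 17195875 per library. The 46 identifiers took 10.83%, 8.824% and 7.586% of the counts in the 23095 mutants, against 14.14% and 13.31% in the 23095 wildtypes. They took 8.744%, 9.248% and 8.418% in the 36433 mutants and 9.714%, 5.125% and 7.471% in the 36433 wildtypes. The 2 wildtype libraries of line 23095 thus stood above the other 9. Over the members, 3 libraries often held an extreme. 23095 wildtype replicate 1 was the highest library in 27 of the 45 identifiers that passed the low-count filter, 23095 mutant replicate 4 was the lowest in 28, and 36433 wildtype replicate 2 was the lowest in 12. CPM is a gene's count scaled to a common library total, here after TMM scaling. It corrects library size but not gene length, so sums and ratios over genes are compared only between libraries. The part that a gene takes of a sum also depends on its length. Transcripts of kdm1a (KDM1A, ENSDARG00000060679) were at 130, 170 and 130 CPM in the 23095 mutants, against 124 and 142 CPM in the 23095 wildtypes. They were at 36.9, 34.2 and 34.8 CPM in the 36433 mutants, against 162, 155 and 135 CPM in the 36433 wildtypes. The targeted transcript fell in the mutants of line 36433 (log2 fold change -2.10, adjusted p = 6.93e-05 by edgeR), while the 23095 groups overlapped, so that the mutant label of line 23095 was not checked by its level.

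The 14 identifiers of the skeletal muscle marker list are all members, so their sums repeat the member levels and are no separate check. They summed to between 57450 and 78550 CPM in the 23095 mutants, against 107600 and 118700 CPM in the 23095 wildtypes. Much of each sum is titin, as in 23095 mutant replicate 4, where the 2 TTN identifiers were at 22969 and 23388 of 57450 CPM. In line 36433 the sums lay between 61500 and 65930 CPM in the mutants and between 36000 and 73080 CPM in the wildtypes. Of 11 heart markers, 4 were matched, each to 1 identifier, and they summed to between 10.89 and 17.95 CPM in every library. The 8 smooth muscle identifiers summed to between 54.79 and 128.5 CPM.

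**Figure D1:**
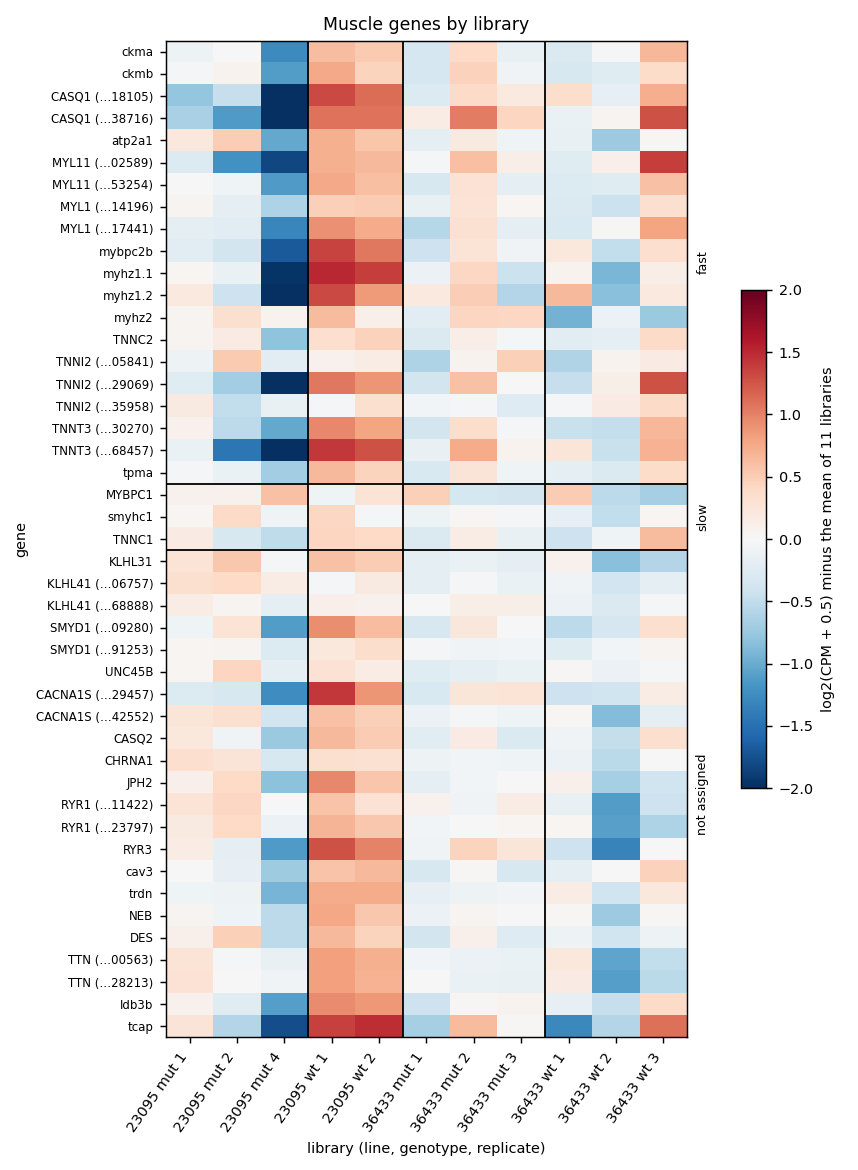
Heat map of the 45 tested identifiers (rows, grouped as fast, slow and not assigned) in the 11 libraries (columns). Colour gives log2(CPM + 0.5) minus the mean of the 11 libraries, clipped at 2 either way. Both 23095 wildtype columns are red in most rows, and 23095 mutant replicate 4 is blue in most fast rows and pale in myhz2 and smyhc1.

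In line 23095, most muscle transcripts had lower levels in the mutants, and a few passed the test. Of 45 tested identifiers, 6 fell and none rose (edgeR's quasi-likelihood test, called at an adjusted p under 0.05), where 1.63% of all 20886 tested genes were called in either direction, 0.934% lower and 0.694% higher. At an unadjusted p under 0.05, 29 were lower, against 8.91% of all genes. This count was 22 without 23095 mutant replicate 4 and 31 without 23095 mutant replicate 1. Of all genes, 13.8% and 17.9% had such a p in either direction in those fits, against 16.8% with all libraries. With all libraries, 33 had every mutant library below both wildtype libraries, against 17.4% of all genes. Of the 45, 43 had a negative log2 fold change, against 48% of all genes. The median log2 fold change was -0.79, against 0.02 over all genes. The 6 that fell were 1 dihydropyridine receptor copy, both calsequestrin-1 copies, triadin, the fast myosin-binding protein mybpc2b and 1 fast troponin T copy.

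Among thick filament genes of fast fibres, 1 passed the test in line 23095, where 0.934% of all genes were called lower. Transcripts of mybpc2b (ENSDARG00000021265), the fast myosin-binding protein C, were at 152, 137 and 54.8 CPM in the 23095 mutants, against 453 and 366 CPM in the 23095 wildtypes. All 3 mutant libraries were below both wildtypes, and replicate 4 was far below the other mutants. The log2 fold change was -1.84 (standard error, SE, 0.36, adjusted p = 0.0331 by edgeR). In line 36433, mybpc2b was at 133, 214 and 169 CPM in the mutants, against 204, 125 and 224 CPM in the wildtypes, and the groups overlapped.

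The fast myosin heavy chains myhz1.1 (ENSDARG00000067990) and myhz1.2 (ENSDARG00000067995) are near-identical tandem copies, so reads may be shared between them. In line 23095, myhz1.1 was at 2557, 2265 and 640 CPM in the mutants, against 7093 and 6470 CPM in the wildtypes. The log2 fold change was -1.90 (SE 0.46), and the adjusted p of 0.0587 did not pass. In myhz1.2 the levels were 557, 364 and 117 CPM in the mutants, against 1219 and 874 CPM in the wildtypes, with a log2 fold change of -1.60 (SE 0.52, adjusted p = 0.141). Neither overlapped between the groups. The third fast heavy chain, myhz2 (ENSDARG00000012944), was at 1926, 2327 and 1939 CPM in the mutants, against 2876 and 1980 CPM in the wildtypes. Its groups overlapped, and its log2 fold change was -0.23 (SE 0.27).

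Myosin light chains, the small subunits on the myosin neck, had the same sign. The 2 MYL11 copies (listed as mylpfa and mylpfb) had log2 fold changes of -1.64 (ENSDARG00000002589, SE 0.45) and -1.01 (ENSDARG00000053254, SE 0.33). The 2 MYL1 copies had -1.31 (ENSDARG00000017441, SE 0.36) and -0.72 (ENSDARG00000014196, SE 0.24). None of the 4 passed the adjusted threshold. In all 4 the 23095 mutants lay below the 23095 wildtypes, against 17.4% of all genes.

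The slow myosin heavy chain smyhc1 (ENSDARG00000099959) was at 4527, 5720 and 4165 CPM in the 23095 mutants, against 5835 and 4308 CPM in the 23095 wildtypes. The groups overlapped, with a log2 fold change of -0.08 (SE 0.21, adjusted p = 0.893). In line 36433 it was at 4075, 4439 and 4273 CPM in the mutants, against 3916, 3111 and 4487 CPM in the wildtypes, again overlapping. MYBPC1 (ENSDARG00000045560), the slow myosin-binding protein C, was at 1.30 CPM or below in every library, too low to describe.

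Of the 9 tested thin filament identifiers, 1 fell in the 23095 mutants, where 0.934% of all genes were called lower. It was a copy of troponin T, which anchors the troponin complex to tropomyosin. The TNNT3 copy ENSDARG00000068457 (listed as tnnt3a or tnnt3b) was at 198, 79.5 and 43.6 CPM in the 23095 mutants, against 581 and 524 CPM in the 23095 wildtypes. The mutants were all lower and spread widely among themselves. It fell by 2.37 in log2 units (SE 0.49, adjusted p = 0.0375 by edgeR). The sister copy ENSDARG00000030270 was at 455, 301 and 212 CPM in the mutants, against 842 and 744 CPM in the wildtypes, giving a log2 fold change of -1.30 (SE 0.36, adjusted p = 0.0873). In line 36433, both copies overlapped between mutants and wildtypes.

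The calcium sensor troponin C has a fast and a slow form on the list. The fast TNNC2 (ENSDARG00000070835) was at 911, 978 and 498 CPM in the 23095 mutants, against 1107 and 1196 CPM in the 23095 wildtypes. The slow TNNC1 (ENSDARG00000037539, listed as tnnc1b) was at 185, 132 and 115 CPM in the mutants, against 220 and 217 CPM in the wildtypes. The 2 forms had like log2 fold changes of -0.53 (SE 0.27) and -0.61 (SE 0.27), and neither passed. Of the 4 identifiers under TNNI2, the inhibitory troponin of fast fibres, ENSDARG00000029069 had a log2 fold change of -1.80 (SE 0.50, adjusted p = 0.0914) and ENSDARG00000035958 one of -0.28 (SE 0.21). The remaining pair, ENSDARG00000005841 and ENSDARG00000013752, stayed at 1.30 CPM or below, and the last of these did not pass the filter. The tropomyosin tpma (ENSDARG00000033683) had a log2 fold change of -0.80 (SE 0.25), and NEB (ENSDARG00000032630), nebulin, the ruler of the thin filament, had -0.82 (SE 0.24), both with non-overlapping groups and neither called.

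None of the 5 identifiers of titin, the Z-disc and the intermediate filaments passed the test. In 4 of them the 23095 mutants were lower without overlap, against 17.4% of all genes. The 2 TTN identifiers (listed as ttn.1 and ttn.2) may share reads. ENSDARG00000000563 was at 30530, 24960 and 22969 CPM in the 23095 mutants, against 44838 and 41427 CPM in the 23095 wildtypes, giving a log2 fold change of -0.72 (SE 0.29, adjusted p = 0.226). The other identifier, ENSDARG00000028213, had -0.67 (SE 0.29). The Z-disc adaptor ldb3b (ENSDARG00000099974) was at 135, 108 and 59.5 CPM in the mutants, against 246 and 232 CPM in the wildtypes, with a log2 fold change of -1.25 (SE 0.30, adjusted p = 0.0572). The titin cap gene tcap (ENSDARG00000007344) was low throughout, at 3.40, 1.68 and 0.452 CPM in the mutants, against 7.95 and 8.61 CPM in the wildtypes. Desmin (DES, ENSDARG00000058656, listed as desma), the muscle intermediate filament, overlapped between the groups at a log2 fold change of -0.47 (SE 0.25).

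Of the 13 identifiers for excitation-contraction coupling, 4 fell in the 23095 mutants, where 0.934% of all genes were called lower. CACNA1S is the voltage-sensing subunit of the dihydropyridine receptor, and its copy ENSDARG00000029457 was at 27.5, 26.7 and 13.8 CPM in the 23095 mutants, against 90.01 and 61.7 CPM in the 23095 wildtypes. Every mutant library was below both wildtypes. It fell by 1.75 in log2 units (SE 0.29, adjusted p = 0.0233 by edgeR). In the 36433 mutants it was at 26.9, 39.6 and 40.3 CPM, against 24.8, 25.4 and 37.2 CPM in the 36433 wildtypes, with overlap. The other CACNA1S copy, ENSDARG00000042552, had a log2 fold change in line 23095 of -0.44 (SE 0.25, adjusted p = 0.392), without overlap.

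Calsequestrin-1 binds calcium inside the sarcoplasmic reticulum of fast fibres. The CASQ1 copy ENSDARG00000018105 was at 11.9, 14.8 and 3.39 CPM in the 23095 mutants, against 52.2 and 45.2 CPM in the 23095 wildtypes. The copy ENSDARG00000038716 was at 23.0, 16.3 and 3.50 CPM in the mutants, against 77.7 and 77.2 CPM in the wildtypes. Both were lower in every mutant library, and lowest in replicate 4. The log2 fold changes were -2.32 (SE 0.43, adjusted p = 0.0322) for the first copy and -2.45 (SE 0.56, adjusted p = 0.0497 by edgeR) for the second. In line 36433 the second copy lay between 40.3 and 74.6 CPM in the mutants, against 33.0 and 88.2 CPM in the wildtypes. Calsequestrin-2 (CASQ2, ENSDARG00000008982), a related calcium store protein, had a log2 fold change in line 23095 of -0.73 (SE 0.27, adjusted p = 0.188).

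Triadin ties calsequestrin to the ryanodine receptor. Transcripts of trdn (ENSDARG00000041779) were at 58.7, 58.0 and 32.6 CPM in the 23095 mutants, against 104 and 105 CPM in the 23095 wildtypes. The wildtypes were nearly equal, and mutant replicate 4 was below the other mutants. The level fell by 1.08 in log2 units (SE 0.24, adjusted p = 0.0438 by edgeR). The 36433 groups, at 55.5, 58.5 and 60.0 CPM in mutants and 69.6, 47.1 and 72.8 CPM in wildtypes, overlapped.

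Among the calcium release channels, RYR3 (ENSDARG00000071331) was at 239, 190 and 98.4 CPM in the 23095 mutants, against 523 and 430 CPM in the 23095 wildtypes. All mutant libraries were lower, and the log2 fold change of -1.44 (SE 0.36) missed the threshold at an adjusted p of 0.0644. The 2 RYR1 copies (listed as ryr1a and ryr1b) had -0.20 (ENSDARG00000011422, SE 0.24) and -0.44 (ENSDARG00000023797, SE 0.26). The SERCA pump atp2a1 (ENSDARG00000020574) was at 8603, 10483 and 3669 CPM in the mutants, against 12202 and 10849 CPM in the wildtypes, giving a log2 fold change of -0.60 (SE 0.34). Mutant replicate 2 came within reach of the wildtypes, and replicate 4 was far below.

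The membrane and receptor genes of the list were mixed. The caveolin cav3 (ENSDARG00000024141), of the T-tubule and sarcolemma, was at 153, 135 and 93.1 CPM in the 23095 mutants, against 227 and 238 CPM in the 23095 wildtypes, with a log2 fold change of -0.87 (SE 0.23, adjusted p = 0.0730). JPH2 (ENSDARG00000028625), a junctophilin that holds the T-tubule against the reticulum, had -0.79 (SE 0.30). The acetylcholine receptor subunit CHRNA1 (ENSDARG00000009021) overlapped at 99.1, 93.1 and 62.4 CPM in the mutants, against 98.0 and 96.7 CPM in the wildtypes. The 2 muscle creatine kinases, which buffer ATP, had log2 fold changes of -0.93 (ckma, ENSDARG00000035327, SE 0.35) and -0.87 (ckmb, ENSDARG00000040565, SE 0.33), without overlap and without a call.

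None of the 6 identifiers for chaperones and turnover was called in line 23095, where 1.63% of all genes were. Their median log2 fold change there was -0.19. At an unadjusted p under 0.05, 2 were lower, against 8.91% of all genes, and 2 were lower without overlap, against 17.4%. The myosin chaperone UNC45B (ENSDARG00000008433) was at 570, 749 and 490 CPM in the 23095 mutants, against 679 and 618 CPM in the 23095 wildtypes. The KLHL41 copy ENSDARG00000006757, a sarcomere-assembly adaptor of the Kelch family, was at 686, 723 and 608 CPM in the mutants, against 533 and 621 CPM in the wildtypes. Both overlapped between the groups. Of the 2 copies of the myosin-interacting methyltransferase SMYD1, ENSDARG00000009280 had a log2 fold change of -0.999 (SE 0.33, adjusted p = 0.150) and ENSDARG00000091253 one of -0.34 (SE 0.16). These SMYD1 copies were the 2 without overlap. The log2 fold changes of KLHL31 (ENSDARG00000039066), another Kelch protein, and of the other KLHL41 copy, ENSDARG00000068888, were -0.27 (SE 0.24) and -0.08 (SE 0.15).

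The calls in line 23095 rested on few libraries. Of the members, 1 was called without 23095 mutant replicate 4 and 12 without 23095 mutant replicate 1. Without 36433 mutant replicates 1, 2 and 3, which enter through the shared spread, 3, 3 and 2 were called. Fits without 1 of the 23095 wildtypes leave 1 library in that group, so their calls cannot be weighed. They do enter the counts of lost calls below. Over all genes, the calls were 143 higher and 323 lower without 23095 mutant replicate 1, against 145 and 195 with all libraries. Without 23095 mutant replicate 4 they were 10 and 14. Without 36433 mutant replicates 1, 2 and 3 they were 30 and 71, 41 and 81, and 48 and 77. A fit of only the 5 libraries of line 23095 called no member, with 4 higher and 2 lower over all genes. DESeq2 called 14 members lower, with 422 higher and 546 lower over all genes. The authors' deposited table for this comparison has 14 members lower and 0 higher at an adjusted p under 0.05, with 4.64% of its genes called. Both rest on the same libraries, and the submitters name DESeq2 too, so these counts are not separate evidence. Of 11 fits that each left out 1 library, the call was lost in 2 for the CACNA1S copy and the CASQ1 copy ENSDARG00000018105, in 4 for mybpc2b, in 6 for trdn, in 7 for the TNNT3 copy and in 8 for the other CASQ1 copy. The median log2 fold change stayed between -0.96 and -0.62 whichever library was left out.

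**Figure D2:**
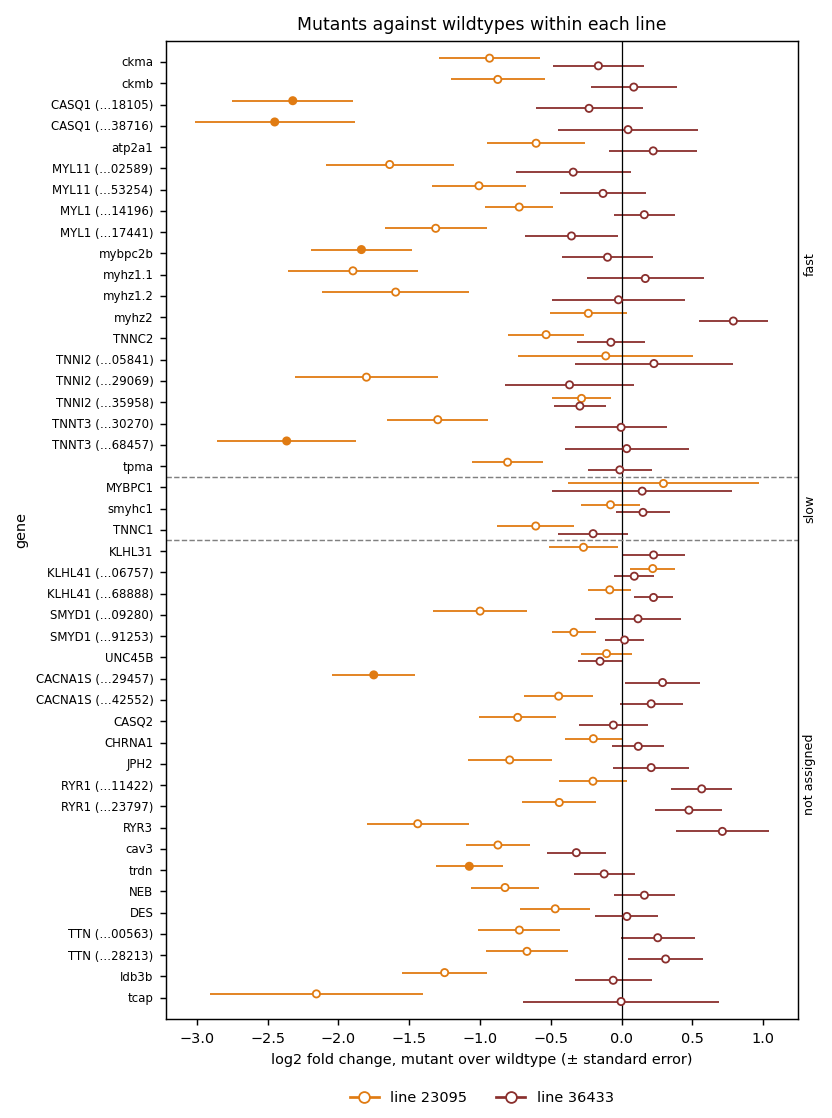
Log2 fold change of mutants over wildtypes for each tested identifier in line 23095 (orange) and line 36433 (dark red), with the SE as a bar. Filled points passed an adjusted p under 0.05. The 6 filled points are all in line 23095, between -2.45 and -1.08, and the points of line 36433 lie between -0.37 and 0.79.

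In line 36433, no member was called in either direction, where 0.168% of all tested genes were. At an unadjusted p under 0.05, 3 were higher and none lower, against 4.11% and 2.64% of all genes, and DESeq2 called none at an adjusted p under 0.05. In 2 the mutants all lay above the wildtypes and in 2 all below, against 7.23% and 6.28% of all genes. The median log2 fold change was 0.05, against -0.02 over all genes, with 26 identifiers above 0 and 19 below, where 52.3% of all genes were below. This split turned with single libraries: 5 were below 0 without 36433 wildtype replicate 3, but 28 without 36433 wildtype replicate 2, 25 without 36433 mutant replicate 2 and 23 without 36433 wildtype replicate 1. The count of higher members at an unadjusted p under 0.05 was 6 without 36433 wildtype replicate 1 and 1 without 36433 wildtype replicate 2 or 36433 mutant replicate 3. Of all genes, 15.6%, 4.6% and 4.03% had such a p in either direction in those fits, against 6.75% with all libraries. The 3 with a low unadjusted p were myhz2, RYR3 and the RYR1 copy ENSDARG00000011422. Transcripts of myhz2 were at 1584, 2492 and 2475 CPM in the 36433 mutants, against 965, 1716 and 1109 CPM in the 36433 wildtypes, giving a log2 fold change of 0.79 (SE 0.24, adjusted p = 0.429 by edgeR). RYR3 was at 205, 294 and 256 CPM in the mutants, against 162, 85.0 and 214 CPM in the wildtypes, giving a log2 fold change of 0.71 (SE 0.33, adjusted p = 0.737). The RYR1 copy was at 363, 325 and 381 CPM in the mutants, against 308, 157 and 257 CPM in the wildtypes, giving a log2 fold change of 0.57 (SE 0.21, adjusted p = 0.630). The first 2 overlapped between the groups, the RYR1 copy did not, and 36433 wildtype replicate 2 was the lowest library in both RYR genes.

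A sarcomere gene outside the list is added here after its values were seen. The alpha-actinin actn2b (ENSDARG00000071090), a Z-disc actin crosslinker, was at 3.90, 3.06 and 5.00 CPM in the 36433 mutants, against 47.0, 28.5 and 23.2 CPM in the 36433 wildtypes. It fell by 3.05 in log2 units (SE 0.28, adjusted p = 0.000299 by edgeR). In line 23095 it was at 62.9, 78.0 and 52.9 CPM in the mutants, against 67.5 and 55.3 CPM in the wildtypes, and overlapped.

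Averaged over both lines, 1 member, the CASQ1 copy ENSDARG00000018105, fell, by 1.28 on the log2 scale, where 2.33% of all genes were called and 1.03% called lower. In line 36433 this copy was at 16.9, 27.0 and 23.5 CPM in the mutants, against 26.4, 18.2 and 34.4 CPM in the wildtypes. Those groups overlapped, so the average does not show a fall in both lines. At an unadjusted p under 0.05, 19 members were lower, against 8.83% of all genes, and 12 without 36433 wildtype replicate 3. In that fit 13.5% of all genes had such a p in either direction, against 17.4% with all libraries. The difference of the mutant effects, line 23095 minus line 36433, was called for none of the 45, where 0.00958% of all genes were called. At an unadjusted p under 0.05, 21 had a lower effect in line 23095, against 4.26% of all genes. This count was 16 without 36433 wildtype replicate 2 and 30 without 23095 mutant replicate 1. Of all genes, 6.12% and 9.34% had such a p in either direction in those fits, against 7.59% with all libraries. DESeq2 called 2 members, with 19 higher and 39 lower over all genes. The median difference was -0.92, against 0.03 over all genes. The smallest unadjusted p values belonged to the CACNA1S copy ENSDARG00000029457, with a difference of -2.04 (SE 0.40, adjusted p = 0.325), and to RYR3, with -2.15 (SE 0.49, adjusted p = 0.351). The edgeR fit therefore did not show the lines to differ in their mutant effect on any single member. DESeq2, on the same libraries, had 2 such calls. The average over lines had no call without 36433 mutant replicate 1, 2 or 3 or 36433 wildtype replicate 3. Over all genes, the calls there were 118 higher and 74 lower, 136 and 127, 86 and 49, and 136 and 82. Fits without 1 of the 23095 wildtypes leave 1 library in that group, so their calls cannot be weighed. The average had 7 calls without 36433 wildtype replicate 1 or 23095 mutant replicate 1, and 2 without 23095 mutant replicate 4. Over all genes, those fits called 639 higher and 800 lower, 259 and 316, and 147 and 144. With all libraries the calls were 271 and 215.

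**Figure D3:**
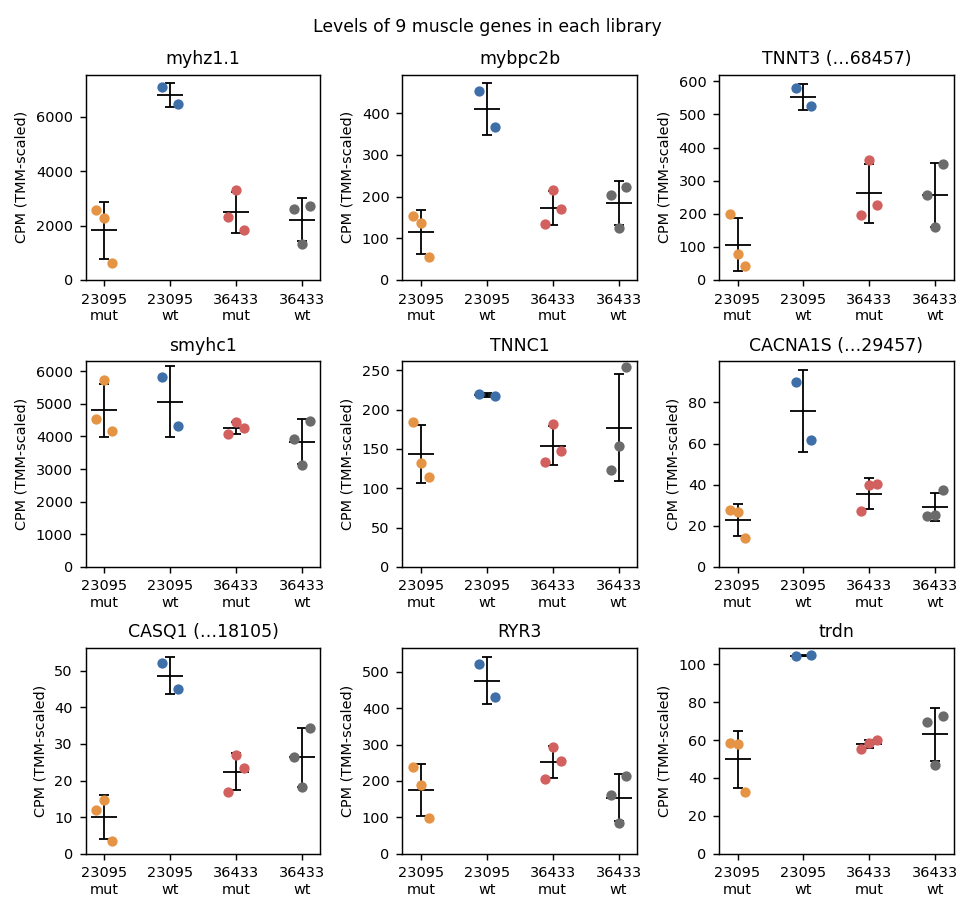
Levels of 9 genes in every library (points, CPM after TMM scaling), with the mean (horizontal line) and SD (bar) of each group, n = 3 except n = 2 in the 23095 wildtypes. In myhz1.1, mybpc2b, the TNNT3 copy, the CACNA1S copy, the CASQ1 copy, RYR3 and trdn both 23095 wildtypes lie above the other 9 libraries, and in smyhc1 and TNNC1 they do not.

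Most members had higher levels in the wildtypes of line 23095 than in those of line 36433, without a call for any single one. Of 45 identifiers, 34 lay higher in both 23095 wildtypes than in every 36433 wildtype, against 16.4% of all genes, and 44 had a positive log2 fold change of line 23095 over line 36433, where 51.5% of all genes were below 0. No single member was called, where 0.393% of all genes were. At an unadjusted p under 0.05, 26 were higher, against 7.6% of all genes, but 17 without 36433 wildtype replicate 2. In that fit 9.07% of all genes had such a p in either direction, against 13.7% with all libraries. A fit without 1 of the 23095 wildtypes leaves 1 library in that group, so its count cannot be weighed. DESeq2 called 11 higher, with 334 higher and 214 lower over all genes. The authors' deposited table has 11 members higher, with 2.52% of its genes called. Here too these counts are not separate evidence. The median log2 fold change was 0.73, against -0.02 over all genes, and 0.55 without 36433 wildtype replicate 2. The 23095 wildtypes exceeded all 9 other libraries in 25 of the 45, against 4.92% of all genes, namely in 10 of 20 fast, 0 of 3 slow and 15 of 22 unassigned identifiers.

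Among the larger differences was that of a ryanodine receptor. RYR3, at 523 and 430 CPM in the 23095 wildtypes, against 162, 85.0 and 214 CPM in the 36433 wildtypes, was 3.10-fold higher (log2 fold change 1.63, SE 0.36, adjusted p = 0.0763 by edgeR). The fast myosin myhz1.1 had 7093 and 6470 CPM in the 23095 wildtypes, against 2603, 1318 and 2726 CPM in the 36433 wildtypes, giving a log2 fold change of 1.61 (SE 0.46, adjusted p = 0.140). The CACNA1S copy ENSDARG00000029457 had 90.01 and 61.7 CPM in the 23095 wildtypes, against 24.8, 25.4 and 37.2 CPM in the 36433 wildtypes, giving a log2 fold change of 1.38 (SE 0.29, adjusted p = 0.0623). The groups did not overlap in any of the 3, where 16.4% of all genes were higher without overlap. The 2 TTN identifiers were 2.17-fold and 2.23-fold higher, with SE 0.29 each on the log2 scale.

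All 22 unassigned identifiers were free of overlap between the wildtypes, with a median log2 fold change of 0.88, while 12 of 20 fast ones were (median 0.60) and 0 of 3 slow ones (median 0.38). Over all genes, 16.4% were higher in the 23095 wildtypes without overlap. In both RYR1 copies, which did not pass the test within line 23095, the wildtypes of the lines lay apart. ENSDARG00000023797 was at 1523 and 1392 CPM in the 23095 wildtypes, against 983, 447 and 622 CPM in the 36433 wildtypes, giving a log2 fold change of 1.09 (SE 0.26, adjusted p = 0.0911). KLHL31 was at 1495 and 1421 CPM in the 23095 wildtypes, against 1060, 558 and 663 CPM in the 36433 wildtypes, giving a log2 fold change of 0.94 (SE 0.24, adjusted p = 0.110). For KLHL31 the 23095 mutants, at 1209, 1453 and 968 CPM, were also above the 36433 mutants, at 873, 915 and 881 CPM.

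Between the mutants of the 2 lines the levels were nearer. No member was called between them, where 1.13% of all genes were, and 1 was higher and 5 were lower at an unadjusted p under 0.05, against 6.66% and 7.12% of all genes. The count of lower members was 10 without 23095 mutant replicate 1 and 3 without 36433 mutant replicate 2, and that of higher ones was 4 without 23095 mutant replicate 4. Of all genes, 15.5%, 8.95% and 12.5% had such a p in either direction in those fits, against 13.8% with all libraries. The median log2 fold change was -0.10, with 30 of 45 below 0, against 47.7% of all genes. In the fit with replicate number as a block, 14 were below 0. That block also takes out 23095 mutant replicate 4, the only library of its number. The higher one was the KLHL41 copy ENSDARG00000006757, and the 5 lower ones were both CASQ1 copies, the MYL11 copy ENSDARG00000002589, the TNNT3 copy ENSDARG00000068457 and the CACNA1S copy ENSDARG00000029457. The CASQ1 copy ENSDARG00000038716, at 23.0, 16.3 and 3.50 CPM in the 23095 mutants, against 40.3, 74.6 and 48.9 CPM in the 36433 mutants, had a log2 fold change of -1.95 (SE 0.52, adjusted p = 0.110 by edgeR). The comparisons within and between lines share libraries and are no independent evidence for each other. The count called between the wildtypes was 5 without 36433 wildtype replicate 1 and 4 without 23095 mutant replicate 4. Over all genes, those fits called 172 higher and 129 lower, and 130 and 55, against 53 and 29 with all libraries. Line and any clutch or day of collection cannot be told apart.

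**Figure D4:**
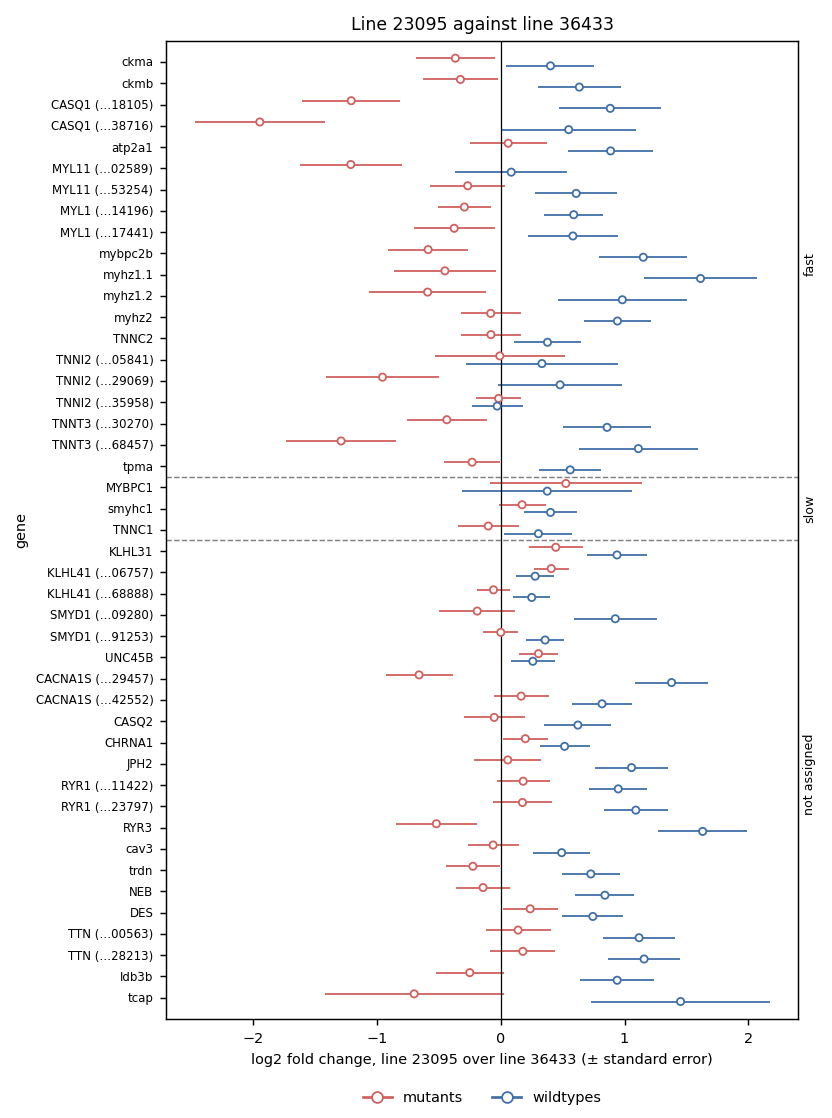
Log2 fold change of line 23095 over line 36433 for each tested identifier, in mutants (red) and in wildtypes (blue), with the SE as a bar. No point passed an adjusted p under 0.05. Of the wildtype points, 44 of 45 lie right of 0, up to 1.63, while 30 of 45 mutant points lie left of it.

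Fast and slow members were set side by side in line 23095. Over all genes there, 0.934% were called lower, 8.91% were lower at an unadjusted p under 0.05, and 17.4% were lower without overlap. Of 20 tested fast members, 4 fell, 15 were lower at an unadjusted p under 0.05 and 17 did not overlap, with a median log2 fold change of -1.15. Of 3 slow ones, none fell, 1 was lower at an unadjusted p under 0.05 and 1 did not overlap, with a median of -0.08. Of 22 unassigned ones, 2 fell, with a median of -0.69. With 3 slow identifiers, 1 of them near 0 CPM, no test of fast against slow members was made, and the difference was not tested.

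The myosin heavy chains show the pattern per library. The ratio of summed fast myosin (myhz1.1, myhz1.2 and myhz2) to slow smyhc1, in CPM, was 1.11, 0.867 and 0.647 in the 23095 mutants and 1.92 and 2.16 in the 23095 wildtypes. It was 1.09, 1.46 and 1.09 in the 36433 mutants and 1.105, 1.06 and 0.979 in the 36433 wildtypes. The 23095 wildtypes were above all other libraries and 23095 mutant replicate 4 was lowest, while the 36433 groups overlapped. The ratio of the troponin C forms, TNNC2 over TNNC1, did not separate the groups of line 23095, with 4.93, 7.42 and 4.35 in the mutants and 5.03 and 5.50 in the wildtypes.

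**Figure D5:**
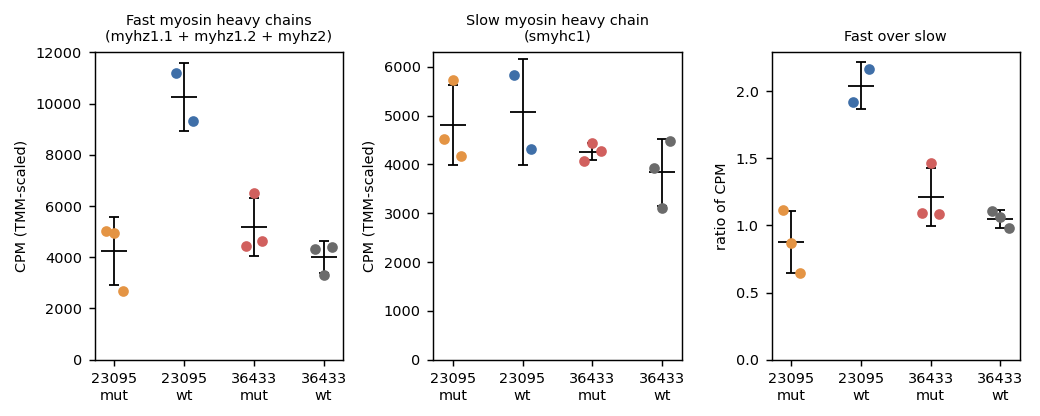
Summed fast myosin heavy chains, the slow heavy chain smyhc1 and their ratio in every library (points), with the mean (line) and SD (bar) of each group, n = 3 except n = 2 in the 23095 wildtypes. Fast myosin is at 2696 to 5040 CPM in the 23095 mutants, against 9324 and 11190 CPM in the 23095 wildtypes, while the smyhc1 ranges overlap.

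Further fast and slow genes were looked up from lists drawn up with earlier results of these data known. Of 18 tested other fast genes, 2 fell in the 23095 mutants and all 18 had a negative log2 fold change, with a median of -1.02. Over all genes, 0.934% were called lower and 48% had a negative log2 fold change. The calcium buffer pvalb1 (ENSDARG00000037789), a parvalbumin of fast fibres, was at 78.7, 55.7 and 8.30 CPM in the 23095 mutants, against 603 and 437 CPM in the 23095 wildtypes, and fell by 3.46 in log2 units (SE 0.74, adjusted p = 0.0408 by edgeR). The tropomodulin TMOD4 (ENSDARG00000020890), which caps thin filaments, fell by 1.08 (SE 0.23). Of 16 other slow genes, 1 fell and 12 had a negative log2 fold change, with a median of -0.29. That 1 was the troponin T gene tnnt2e (ENSDARG00000045822), at 4.17, 3.50 and 3.50 CPM in the mutants, against 16.3 and 10.1 CPM in the wildtypes. The second slow myosin smyhc2 (ENSDARG00000103969), with 394, 460 and 344 CPM in the mutants, against 515 and 458 CPM in the wildtypes, overlapped narrowly, and is named outside the rule for these lists.

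Of 40 tested other sarcomere and triad genes, 3 fell and 1 rose in the 23095 mutants, with a median log2 fold change of -0.35. Over all genes, 0.934% were called lower and 0.694% higher. The XIRP2 copy ENSDARG00000091090, an actin-binding repeat protein of muscle attachments, was at 6.56, 6.35 and 0.960 CPM in the 23095 mutants, against 131 and 87.2 CPM in the 23095 wildtypes, and fell by 4.62 in log2 units (SE 0.64, adjusted p = 0.0161 by edgeR). NRAP (ENSDARG00000009341), an assembly scaffold of young myofibrils, fell by 1.29 (SE 0.26), and TMOD4 stands in this list too. The FHL1 copy ENSDARG00000071498, a LIM-domain protein, rose by 1.73 (SE 0.38), at 16.7, 9.33 and 21.7 CPM in the mutants, against 4.17 and 5.56 CPM in the wildtypes. At the nerve-muscle contact, ACHE (ENSDARG00000031796), the enzyme that clears acetylcholine, was the 1 of 12 genes that fell, by 1.61 (SE 0.33). None of 14 tested genes for other muscle chaperones and quality control was called, with a median of -0.10.

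Of 28 tested myogenic regulators and fusion genes, 2 rose in the 23095 mutants, where 0.694% of all genes were called higher, and none fell, 23 had a positive log2 fold change, and the median was 0.19. MYMK (ENSDARG00000103988, myomaker, the membrane protein of myoblast fusion) was at 131, 123 and 146 CPM in the 23095 mutants, against 48.4 and 64.6 CPM in the 23095 wildtypes. It rose by 1.24 in log2 units (SE 0.20, adjusted p = 0.0206 by edgeR). The fusion receptor jam2a (ENSDARG00000058996) was at 47.5, 73.7 and 73.1 CPM in the mutants, against 19.2 and 28.1 CPM in the wildtypes, and rose by 1.45 (SE 0.26, adjusted p = 0.0286). Both were higher in every 23095 mutant library than in either 23095 wildtype, and replicate 4 was highest in MYMK. In line 36433, none of these lists had a call. Between the wildtypes, DOK7 (ENSDARG00000060236), which organises acetylcholine receptors, was called higher in line 23095, at 22.2 and 21.6 CPM in the 23095 wildtypes, against 7.25, 6.79 and 9.60 CPM in the 36433 wildtypes, with a log2 fold change of 1.47 (SE 0.20, adjusted p = 0.00710). It is named after its values were seen. No other gene of these lists was called between the wildtypes.

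Markers of several other cell types differed between the same groups. Markers of presomitic mesoderm and tailbud, the unsegmented tissue that gives rise to the somites, summed to 274 to 378.9 CPM in the 23095 mutants, against 165.4 to 198.2 CPM in the 23095 wildtypes. The sums were 262.8 to 302.4 CPM in the 36433 mutants, against 237 to 310.9 CPM in the 36433 wildtypes. Of 19 tested, 5 rose in the 23095 mutants (tbx6, tbx16, her7, dlc and mespaa), where 0.694% of all genes were called higher, and the median log2 fold change was 0.99. Between the wildtypes the median was -0.96, with 12 of 19 lower in line 23095 without overlap, against 14.6% of all genes, and none called. Myeloid markers also moved, with 5 of 10 tested identifiers called lower in the 23095 mutants, where 0.934% of all genes were. Their sums were 11.4 to 12.82 CPM in the 23095 mutants, against 40.27 to 41.85 CPM in the 23095 wildtypes. In line 36433 they summed to 12.96 to 21.78 CPM in the mutants, below the 24.24 to 47.93 CPM in the wildtypes, with none called. Of the 10 tested, 6 were lower there without overlap, against 6.28% of all genes. Averaged over both lines, 7 myeloid markers were called lower, against 1.03% of all genes. Of 7 endothelial markers, 2 rose (FLI1 and etsrp) and 1 fell (pecam1a) in the 23095 mutants, and the sums were 396.4 to 552.7 CPM in the 23095 mutants, against 310.4 to 322.6 CPM in the 23095 wildtypes. Endothelial sums were 304 to 363.9 CPM in the 36433 mutants, against 257.8 to 278.2 CPM in the 36433 wildtypes, with none called. No epidermal or erythroid marker was called within either line or between the wildtypes, and 1 erythroid marker was lower in the 23095 mutants than in the 36433 mutants. In the 23095 mutants 7 of 10 epidermal markers were lower without overlap, against 17.4% of all genes. The epidermal sums were 20200 to 21270 CPM in the 23095 mutants, against 25260 to 26780 CPM in the 23095 wildtypes. Between the wildtypes, all 10 epidermal markers (median -0.45) and all 7 erythroid ones (median -0.76) had a negative log2 fold change of line 23095 over line 36433. The sums of the heart markers overlapped between all groups, and those of the smooth muscle markers overlapped within both lines. No neuron or notochord marker was called within either line, and their median log2 fold changes in line 23095 were -0.19 and 0.05. No marker of any list was at 0 in all libraries. The part of tailbud, myeloid, endothelial, epidermal or erythroid tissue, and of the stage reached by each pool, in the muscle result was not tested.

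The members varied together across libraries to different degrees. Pearson's r between a member's log2 CPM and the mean z-score of the 45 tested members over the 11 libraries, to which each member itself contributes, was highest for CASQ2 (0.963), ldb3b (0.962) and myhz1.1 (0.962). It was lowest for MYBPC1 (-0.179), the KLHL41 copy ENSDARG00000006757 (0.227), the TNNI2 copy ENSDARG00000035958 (0.263) and myhz2 (0.324). MYBPC1 was at 1.30 CPM or below in every library, too low for its r to be read. Among non-members whose log2 CPM averaged at least 3, the 5 most like the mean were MYOM1 (0.991), si:ch73-367p23.2 (0.983), GPHN (0.982), asb2a.1 (0.980) and ABCC9 (0.977). MYOM1 (ENSDARG00000061249) encodes myomesin, the M-band crosslinker of thick filaments, and was at 456, 437 and 248 CPM in the 23095 mutants, against 832 and 702 CPM in the 23095 wildtypes. It was at 370, 477 and 389 CPM in the 36433 mutants, against 400, 284 and 465 CPM in the 36433 wildtypes. These values share libraries and depth and describe the pattern only.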

How the data were processed

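RNA was sequenced from 11 pools of zebrafish tails with a stranded total RNA kit with removal of ribosomal RNA, per the labels' protocols. The authors deposited raw counts per Ensembl gene, whole and not normalized, as read from the file headers and values. Named in the submitters' processing notes, with no role or order, are STAR 2.7.2c, cutadapt 1.16, GRCz11 and DESeq2 1.22.2, and no counting tool. The authors' deposited tables of comparisons hold log2 fold changes and an adjusted p-value per gene. They are quoted only as counts. The table of the wildtypes carries line 23095 with an extra digit in its name and was read as that line. Across genes its log2 values had a Pearson's r of 0.853 with those computed here.

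Counts were filtered with filterByExpr (minimum count 10, minimum total 15), leaving 20886 genes, scaled by TMM and fitted with edgeR 4.0.16 in R 4.3.3 as 1 model of 4 group means over 11 libraries, with 7 residual degrees of freedom. The two-sided quasi-likelihood F-test was adjusted by Benjamini-Hochberg over all tested genes, with calls made at an adjusted p under 0.05. Standard errors are on the log2 scale and were derived from the test, as the absolute log2 fold change over the square root of F. The script was tested on simulated data. Members were matched by zebrafish symbol (13) or human symbol (25). Replicates of a group differed beyond sampling noise, so no library was counted as a repeat of another. All per-sample columns were used. Genome coordinates, gene lengths and sequences were not used here.

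The members and the gene lists were chosen with earlier results of these data known. All members are described, and of each further list up to 4 genes with the smallest p in line 23095 or the average over lines. Alternatives were DESeq2 1.42.0, its size factors, library totals, 2 other filters, a fit of only the groups compared, a replicate block and leaving out each library. TMM without the muscle genes, and identifiers matched without ambiguity, were added after seeing the data.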

Additional observations from a re-analysis of the deposited data

How the results depend on the processing

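The 6 members called in line 23095 kept a negative sign there under all alternatives, and line 36433 had 0 calls among the members under all of them. Signs of members that were not called did change: of 45, 18 between the mutants of the lines and 5 in line 23095 with the replicate block, 4 in line 23095 with library totals, and up to 16 in line 36433 when 1 library was left out. The median for line 36433 then lay between -0.11 and 0.23, and that between the mutants was 0.13 with the block. In line 23095, the 6 calls became 14 with DESeq2, 0 when only the compared groups were fitted, 3 over the 32 identifiers matched without ambiguity, and 0 to 12 when 1 library was left out. The average over lines had 1 call, and 7 with DESeq2, 0 over the unambiguous identifiers and 0 to 7 when 1 library was left out. The difference of the mutant effects had 0 calls, and 2 with DESeq2. The wildtypes of the lines had 0 calls, and 1 with library totals, 11 with DESeq2 and 0 to 5 when 1 library was left out; the mutants had 0 calls, and 0 to 1. Over all genes the calls moved too, in line 23095 to 10 higher and 14 lower without 23095 mutant replicate 4. They were 232 and 387 without 36433 wildtype replicate 1. With DESeq2 they were 422 and 546 in line 23095 and 534 and 515 for the average over lines. DESeq2 gave 19 and 39 for the difference of the mutant effects, and 334 and 214 between the wildtypes. The cause of these changes was not tested, except that leaving out libraries leaves fewer samples. With the replicate block, line 23095 had 0 calls and the wildtypes of the lines had 2. Only 23095 mutant replicate 4 carries its number, so the block fits that library exactly. The block thereby also takes that library out of the comparisons. Whether replicate numbers pair the samples was not settled. In line 36433 the deviations of same-numbered mutants and wildtypes correlated at 0.20, 0.08 and 0.018. Those of differently numbered ones lay between -0.202 and 0.159. In line 23095 the same-numbered ones correlated at -0.078 and -0.183. There the deviations of 2 wildtype libraries mirror each other by construction, so these values cannot decide it. Library totals alone moved the median of all genes in line 23095 to 0.14 and the called genes to 207 higher and 162 lower, where the reported fit had 145 and 195. The members' median was then -0.68. The same setting gave 390 higher and 182 lower for the average over lines (271 and 215 in the reported fit) and 57 and 51 for the wildtypes of the lines (53 and 29). Low counts limit MYBPC1, tcap and 2 TNNI2 copies, and 2 wildtype libraries limit line 23095.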
